A study of Sorghum bicolor with 12 samples.

Results

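A set of 19 genes, of 20818 measured in sorghum roots, differed between drought and water in the brassinosteroid receptor mutant line NIL-bri1-72 and showed little difference in its wild-type sister line NIL-WT-72. The members were chosen by measured values of all 12 libraries. Counts were divided by the library total to give CPM, the usual unit that removes depth, and put on the scale log2(CPM + 0.5). A gene was kept when the 3 droughted NIL-bri1-72 libraries lay all above or all below the 3 watered ones, when the means of these groups differed by 0.8 or more, and when the means of the NIL-WT-72 groups differed by less than 0.3. Of the 19 genes, 10 were higher in drought and 9 were lower. They are called risen and fallen below, which names the direction the rule required and not a call by a test.

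The study compared roots detached from mature Sorghum bicolor plants in 4 groups of 3 libraries, stated to be biological replicates. NIL-bri1-72 carries a single-base change in the extracellular part of SbBRI1 and was held at 30% of field capacity or watered. NIL-WT-72 lacks that change and was kept under the same regimes. Both lines are BC2F3 plants of an EMS-mutagenized background and were assumed by the submitters to be near-isogenic, so each genotype is represented by 1 line and a difference between the lines cannot be told apart from other segments in which they differ.

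Brassinosteroids are plant steroid hormones that promote cell elongation and vascular development. BRI1 is the receptor kinase at the cell surface that binds them, and through a phosphorylation cascade it controls transcription factors of the BES1 family, which switch target genes on or off. In roots these hormones act on meristem size and elongation, and their signalling meets that of abscisic acid, the main hormone of water shortage. The stated purpose of the series was to find early targets of SbBES1 in drought sensing. A gene that drought moved in one line alone would be a candidate for a response that differs with the receptor, or with other segments in which the lines differ.

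The table pairs no identifier with a gene name, and 0 of its 20818 identifiers matched the RefSeq gene table of sorghum, so no member is given a function and neither pathway lists nor markers of shoot tissue could be applied. Library totals lay between 18640601 and 33296273 counts. No library had a count of 0, and the smallest count was 8 to 13, or 0.379 to 0.429 CPM, so genes silent in one group were not analysed here. Over all genes NIL-WT-72 water replicate 1 lay farthest from the mean of its group, by 0.365 log2 units (root mean square), followed by 0.308 for NIL-WT-72 water replicate 3, 0.306 for NIL-bri1-72 drought replicate 1 and 0.289 for its drought replicate 2. The remaining 8 libraries lay between 0.166 and 0.249.

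The first question was how much of the NIL-bri1-72 response was missing in NIL-WT-72. Before the condition on NIL-WT-72 was applied, 108 genes were higher in drought in NIL-bri1-72, 0.519% of all genes, and 258 were lower, 1.24% of all genes. Of the 108 higher genes, 97 also differed by 0.3 or more in the same direction in NIL-WT-72, 65 of them by 0.8 or more. Of the 258 lower genes, 249 differed by 0.3 or more in the same direction and 194 by 0.8 or more. In the opposite direction by 0.3 or more lay 1 of the higher genes and 0 of the lower genes. The rule therefore kept 9.26% of the higher and 3.49% of the lower genes, whereas 77.9% of all genes differed by less than 0.3 in NIL-WT-72. Across the 108 genes the median difference, drought minus water, was 1.06 in NIL-bri1-72 and 0.94 in NIL-WT-72, and across the 258 genes it was -1.091 and -1.095 in the same order. In such bulk samples fewer cells of a type and less RNA per cell cannot be told apart.

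**Figure D1:**
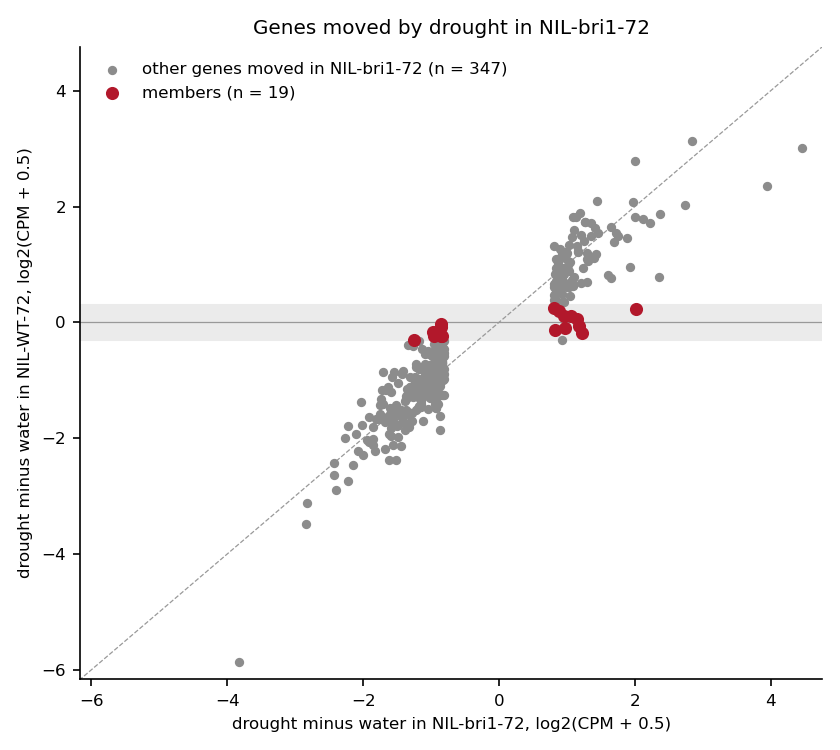
Each point is 1 of the 366 genes whose droughted and watered NIL-bri1-72 libraries did not overlap and differed by 0.8 or more. The horizontal axis gives drought minus water in NIL-bri1-72 and the vertical axis the same in NIL-WT-72, both as differences of group means of log2(CPM + 0.5). The grey band marks differences under 0.3 in NIL-WT-72 and the dashed line equal differences. The 19 members lie in the band, while most other points follow the dashed line.

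Applied with the lines exchanged, the same rule kept 33 genes that moved in NIL-WT-72 and not in NIL-bri1-72, 25 risen and 8 fallen. They came from 174 higher and 221 lower genes in NIL-WT-72, where the NIL-bri1-72 sets of 10 and 9 came from 108 and 258. No test was made of these counts, since both sets were chosen on the same 12 libraries.

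The values nearest to the bounds of the rule were as follows. Among risen genes the NIL-WT-72 differences nearest to the bound were 0.245 inside it and -0.306 and 0.32 outside it. Among fallen genes they were -0.299 inside and -0.326 outside. For the NIL-bri1-72 difference, the risen gene nearest to the bound was at 0.813 inside and the nearest gene left out at 0.799, and the fallen pair was -0.833 and -0.797. Of the 10 risen genes 3 lay within 0.1 of the NIL-bri1-72 bound, and of the 9 fallen genes 6 did.

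The 10 risen genes were of low abundance. Their mean over all 12 libraries ranged from 1.42 to 8.26 CPM with a median of 4.20, against a median of 18 CPM for all genes, and 9 of the 10 lay under 5 CPM, where 22.1% of all genes lie. The NIL-bri1-72 difference ranged from 0.81 to 2.01 with a median of 1.02, and the NIL-WT-72 difference from -0.19 to 0.245 with a median of 0.08. In NIL-WT-72 6 of them were slightly higher and 4 slightly lower in drought.

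Sobic.003G331700 on chromosome 3 had the largest NIL-bri1-72 difference of the set. It fell outside the rule for named genes, which asked for 10 CPM in a NIL-bri1-72 group, and was named after its values were seen. It was at 14.7, 2.37 and 3.21 CPM in droughted NIL-bri1-72 roots, against 0.451, 0.668 and 1.72 CPM in watered ones. In NIL-WT-72 it was at 5.55, 3.61 and 6.88 CPM in drought and 3.75, 2.95 and 7.34 CPM in water. The NIL-bri1-72 groups were separate, but in CPM 1 droughted library held most of the difference between their means. All 3 watered NIL-bri1-72 libraries lay below every NIL-WT-72 library. The means were 6.77 ± 6.91 CPM in drought and 0.946 ± 0.679 CPM in water for NIL-bri1-72 (SD, n = 3), a ratio of 7.16, and 5.35 ± 1.65 and 4.68 ± 2.34 CPM for NIL-WT-72 (SD, n = 3). Its smallest count in a library was 15.

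Sobic.008G021800 on chromosome 8 was the only risen gene at 10 CPM or more in a NIL-bri1-72 group. Droughted NIL-bri1-72 libraries held 17.8, 5.74 and 6.73 CPM, against 3.63, 4.67 and 2.79 CPM in watered ones. NIL-WT-72 held 4.97, 10.1 and 12.8 CPM in drought and 4.74, 10.4 and 14.8 CPM in water. Replicate 1 was the highest in droughted NIL-bri1-72 and the lowest in both NIL-WT-72 groups, so NIL-WT-72 varied widely, and over nearly the same range, in both regimes. The drought log2 fold change fitted by edgeR was 1.43 (SE 0.51) in NIL-bri1-72 and -0.11 (SE 0.49) in NIL-WT-72. Without NIL-WT-72 water replicate 1 the NIL-WT-72 difference was -0.50, and without drought replicate 1 it was 0.31.

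**Figure D2:**
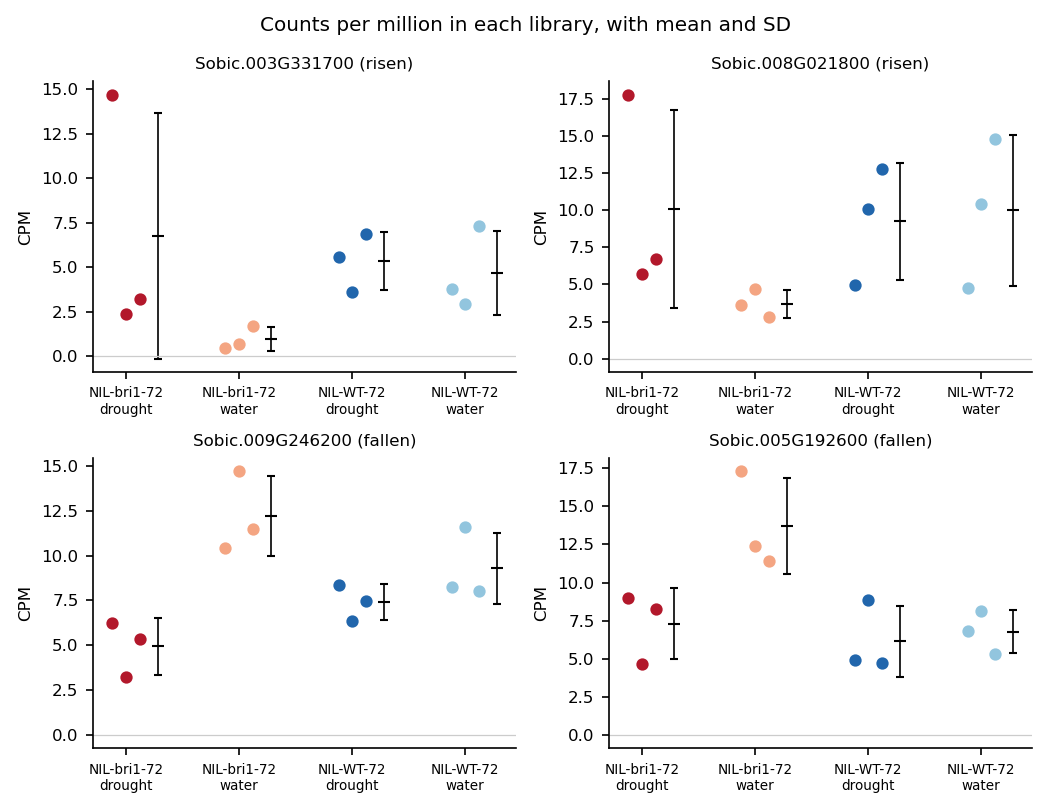
Level in CPM of 4 member genes in each of the 12 libraries (points), with mean and SD of each group of 3 (bars). Each panel is 1 gene, and the groups run from droughted NIL-bri1-72 to watered NIL-WT-72. The upper genes have 1 droughted NIL-bri1-72 library far above the other 2, at 14.7 and 17.8 CPM.

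The NIL-WT-72 difference of 2 other risen genes moved widely with single watered NIL-WT-72 libraries. Sobic.009G073800 on chromosome 9 was at 3.64, 5.35 and 5.54 CPM in droughted and 1.5, 2.87 and 1.47 CPM in watered NIL-bri1-72, and at 4.66, 4.97 and 6.32 CPM in droughted and 13.4, 1.98 and 4.45 CPM in watered NIL-WT-72. The other gene, on chromosome 3, held 12.5, 2.63 and 1.51 CPM in watered NIL-WT-72. Replicate 1, the library that stood farthest from its group over all genes, was the high one in both. Without it the NIL-WT-72 differences were 0.72 for Sobic.009G073800 and 0.89 for the other gene. Without water replicate 2 that of Sobic.009G073800 was -0.52, and without water replicate 3 that of the other gene was -0.455. Over the whole set, the NIL-WT-72 difference stayed under 0.3 for 5 of the 10 risen and 6 of the 9 fallen genes without water replicate 1, for 6 and 4 without water replicate 3, and for 7 and 9 without water replicate 2. The counts were 8 and 8, 8 and 5, and 7 and 6 without drought replicates 1, 2 and 3.

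The remaining risen genes lay on chromosomes 1, 2 and 9, with NIL-bri1-72 ratios of drought to water between 1.91 and 3.51. By chromosome the risen genes numbered 3 on chromosome 2, 3 on chromosome 9, 2 on chromosome 3 and 1 each on chromosomes 1 and 8. Sobic.009G069500 and Sobic.009G069700 on chromosome 9, named after their places were seen, are separated by 1 listed gene. The gene between them was at 18.4 CPM on average, with differences of 0.32 in NIL-bri1-72 and 0.17 in NIL-WT-72. Sobic.009G069500 was at 4.90, 2.85 and 3.11 CPM in droughted and 1.89, 2.36 and 1.23 CPM in watered NIL-bri1-72, and Sobic.009G069700 at 4.51, 6.29 and 8.16 CPM and 3.93, 3.34 and 2.25 CPM in the same groups. The droughted replicate that was highest in the first was the lowest in the second, so the neighbours did not follow the same libraries. Whether they are copies that could share reads was not tested, since their sequences were not used here.

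The 9 fallen genes were more abundant at the upper end, with means between 1.47 and 21.4 CPM and a median of 4.11 CPM. The NIL-bri1-72 difference ranged from -1.26 to -0.83 with a median of -0.88. The NIL-WT-72 difference was below 0 in all 9, from -0.299 to -0.031, with a median of -0.18. Their direction in NIL-WT-72 was thus the same as in NIL-bri1-72, at a size under the bound. They lay on chromosomes 5 and 10 (2 each) and on 1, 2, 3, 4 and 9 (1 each), and no 2 neighbouring fallen genes had fewer than 722 listed genes between them.

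Sobic.009G246200 on chromosome 9 had the largest difference among the fallen genes. It was at 6.27, 3.21 and 5.33 CPM in droughted NIL-bri1-72 roots, against 10.4, 14.7 and 11.5 CPM in watered ones. In NIL-WT-72 it was at 8.37, 6.38 and 7.45 CPM in drought and 8.26, 11.6 and 8.03 CPM in water. The NIL-bri1-72 groups were well apart, while 1 droughted NIL-WT-72 library lay above 2 of the watered ones. The log2 fold change was -1.31 (SE 0.24) in NIL-bri1-72 and -0.33 (SE 0.24) in NIL-WT-72, where its 95% interval ran from -0.85 to 0.20.

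Sobic.005G192600 on chromosome 5 was at 9.01, 4.64 and 8.28 CPM in droughted NIL-bri1-72 and 17.3, 12.4 and 11.4 CPM in watered NIL-bri1-72. In NIL-WT-72 it was at 4.93, 8.83 and 4.71 CPM in drought and 6.82, 8.15 and 5.35 CPM in water. The watered NIL-bri1-72 roots were the group that stood apart, with all 3 libraries above the 9 others. The gene with the highest level of the set, on chromosome 4, showed the same arrangement, at 21.5, 11.7 and 18.3 CPM in droughted and 32.2, 26 and 33.9 CPM in watered NIL-bri1-72, and at 17.1, 21.6 and 16.4 CPM in droughted and 13.4, 25.3 and 18.9 CPM in watered NIL-WT-72. Its smallest count was 354, and for the other fallen genes the smallest counts lay between 12 and 124. A count of 12 was the lowest value that NIL-bri1-72 drought replicate 2 holds for any gene.

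**Figure D3:**
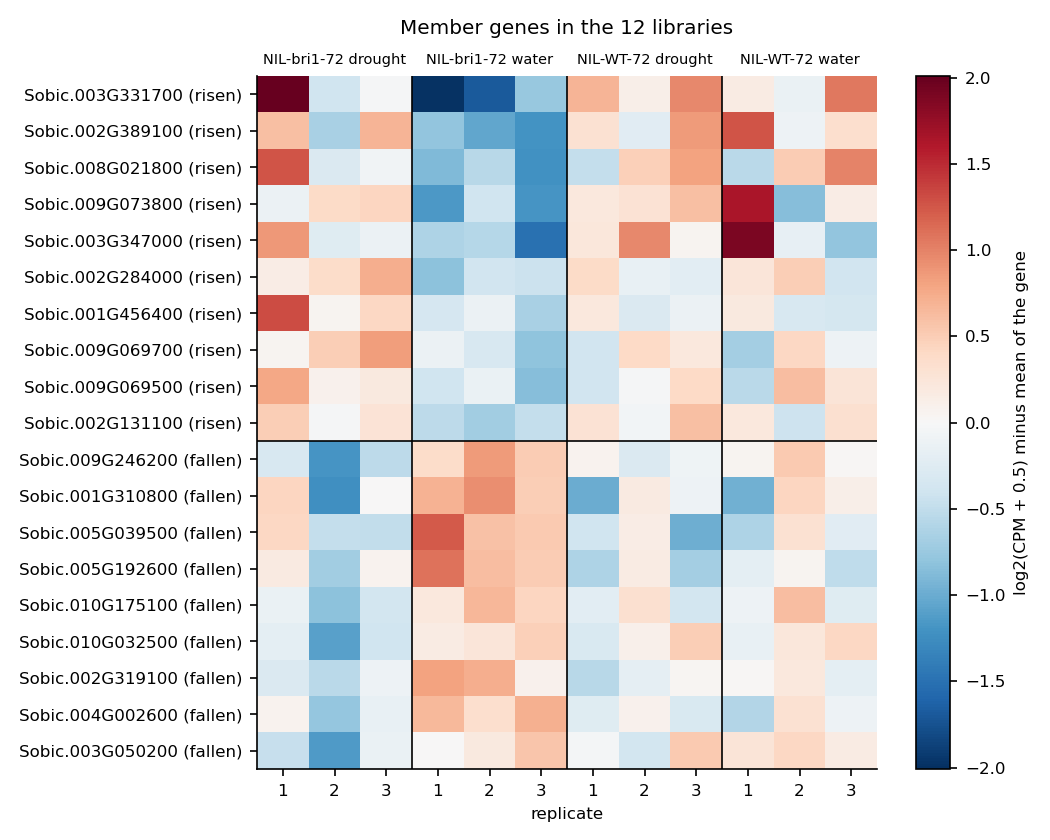
Log2(CPM + 0.5) of the 19 members in the 12 libraries, with the mean of each gene over all libraries subtracted. Rows are genes, the 10 risen above the 9 fallen, each ordered by the size of the NIL-bri1-72 difference, and columns are replicates 1 to 3 of each group. The NIL-bri1-72 blocks show the contrast the rule required, and the darkest cells of the NIL-WT-72 blocks are those of water replicate 1 in 2 risen genes.

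Which droughted NIL-bri1-72 library lay at the far end was counted for each set. Among risen genes replicate 1 was the highest droughted library in 6 of 10 and replicate 3 in 4 of 10. Replicate 1 was the highest in 36.1% and replicate 3 in 46.3% of the 108 genes before the NIL-WT-72 condition, and replicate 1 in 43.8% of all genes. Among fallen genes replicate 2 was the lowest in 8 of 9, against 47.7% of the 258 genes before the NIL-WT-72 condition and 44.9% of all genes. Without replicate 2 the rule kept 39 risen and 6 fallen genes, of which 10 and 2 were members. Without replicate 1 it kept 59 risen and 121 fallen genes, which held 5 and 9 of the members.

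Spread among NIL-WT-72 replicates is a measure the rule did not use. The median SD within a NIL-WT-72 group was 0.517 log2 units for the 10 risen genes and 0.351 for the 9 fallen genes, against 0.200 for all genes and 0.275 for the 7165 genes between 1 and 10 CPM. Before the NIL-WT-72 condition it was 0.46 for the 108 higher and 0.531 for the 258 lower genes. For 7 of the 10 risen and 5 of the 9 fallen genes, the range over the 6 NIL-WT-72 libraries was wider than the NIL-bri1-72 difference that had selected the gene. These are unlike measures, since a range of single libraries tends to be wider than a difference of group means. The 95% interval of the drought effect in NIL-WT-72, from the edgeR fit, included a change of 0.8 in the direction of NIL-bri1-72 for 6 of the 10 risen and 7 of the 9 fallen genes. These intervals come from a contrast the rule used and describe its precision only. For 3 fallen genes the interval also included the NIL-bri1-72 estimate itself, and for 0 of the risen genes. Shares over all genes were not taken for the ranges or the intervals, so nothing particular to the members is read from these counts.

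Gene-wise calls for the contrasts that chose the members are given for reference. For drought in NIL-bri1-72, edgeR called 0 members and 0% of all genes (adjusted p below 0.05), the lowest adjusted p of a member being 0.171, while 17 members and 1518 of all genes had an unadjusted p below 0.05. DESeq2 called 202 genes, among them Sobic.003G331700, Sobic.009G246200 and Sobic.002G319100, the last named for this call, and limma voom called 0. For drought in NIL-WT-72, edgeR called 0 members and 0.0144% of all genes, and 0 members and 1968 of all genes had an unadjusted p below 0.05. DESeq2 called 305 genes and limma voom 1, none of them a member. For the interaction, the difference between the drought effects of NIL-bri1-72 and NIL-WT-72, edgeR called 0 members and 0% of all genes. DESeq2 and limma voom also called 0. An unadjusted p below 0.05 was reached by 7 members and 232 of all genes in edgeR, by 9 and 283 in DESeq2 and by 5 and 231 in limma voom. The interaction estimate was 2.66 (SE 0.97) for Sobic.003G331700 and -0.98 (SE 0.34) for Sobic.009G246200.

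Whether the contrast held was read in libraries that took no part in the selection. The rule was applied to replicate numbers 2 and 3, then 1 and 3, then 1 and 2 of all 4 groups, and drought minus water was read in the 4 libraries left out. With 2 libraries a group the rule selects more genes, so these sets are not the 19 members, which used every library. Leaving out number 1 selected 63 risen genes, 4 of them members, with medians of 0.96 in NIL-bri1-72 and 0.13 in NIL-WT-72. In the libraries left out the medians were -0.08 in NIL-bri1-72 and 0.45 in NIL-WT-72. Leaving out number 2 selected 56 genes, and the left-out medians were 0.01 and 0.45 in the same order. Leaving out number 3 selected 16 genes, and the left-out medians were 0.74 and 0.30. The contrast that the rule required was thus kept in the left-out libraries of 1 number and turned round in those of the other 2.

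The fallen genes were read in the same left-out libraries. Leaving out number 1 selected 149 genes, whose median was -0.945 in NIL-bri1-72 and -0.11 in NIL-WT-72, and in the left-out libraries -0.009 and -0.66. Leaving out number 2 selected 10 genes, with left-out medians of -0.51 and -0.68, and leaving out number 3 selected 46, with -0.12 and -0.11. In none of the 3 left-out sets was the median fall larger in NIL-bri1-72 than in NIL-WT-72 by more than 0.01.

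Averaged over the 3 numbers, the risen medians were 0.93 in NIL-bri1-72 and 0.075 in NIL-WT-72 in the libraries used, and 0.22 (SD 0.45, n = 3) and 0.40 (SD 0.09, n = 3) in those left out. The fallen medians were -0.93 and -0.12 in the libraries used, and -0.21 (SD 0.26, n = 3) and -0.48 (SD 0.32, n = 3) in those left out. These 3 values come from different gene sets chosen on overlapping libraries, so the SD is their scatter and not a spread of independent replicates. The medians of all genes in the left-out libraries were -0.02 in NIL-bri1-72 and 0.01 in NIL-WT-72. NIL-WT-72, required to be still in the libraries used, moved in the direction of NIL-bri1-72 in the left-out libraries for 56 of 63, 48 of 56 and 12 of 16 risen genes and for 127 of 149, 9 of 10 and 29 of 46 fallen genes. NIL-bri1-72 did so for 25, 29 and 14 of those risen genes and for 76, 9 and 27 of those fallen genes. NIL-bri1-72 moved further than NIL-WT-72 in that direction for 20.6%, 23.2% and 68.8% of the risen genes and for 19.5%, 60.0% and 50% of the fallen genes. Of all 20818 genes, 10961, 10418 and 10841 moved upward in the left-out NIL-WT-72 libraries. In NIL-bri1-72 10675, 9048 and 10194 did. The upward difference was larger in NIL-bri1-72 for 48.8%, 45.6% and 46.9% of all genes. Each left-out reading is 1 droughted minus 1 watered library of a line. The genes in a count share these libraries and are not replicates. With number 1 left out the NIL-WT-72 reading uses water replicate 1, the library farthest from its group over all genes.

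**Figure D4:**
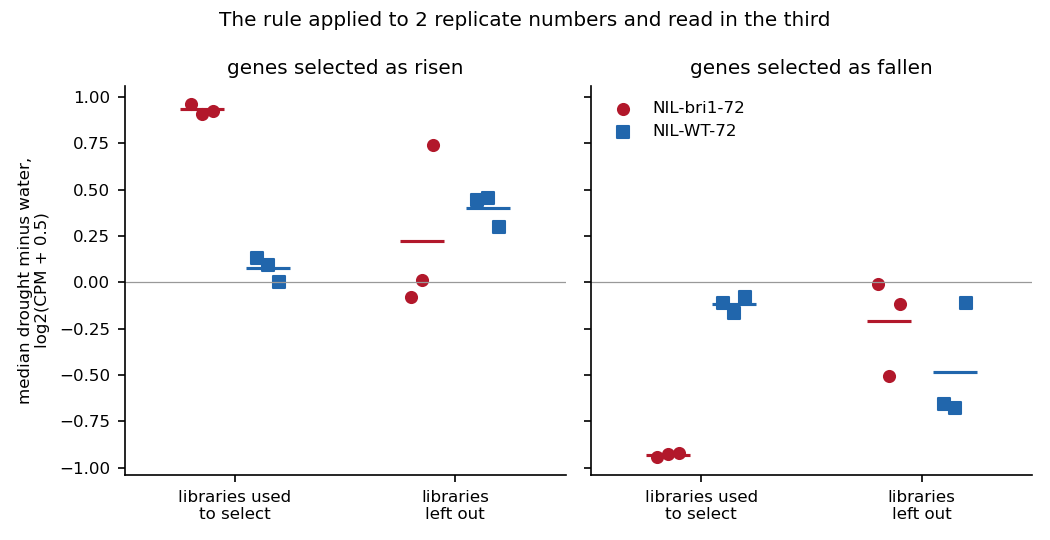
Median drought minus water of the genes that the rule selected on 2 of the 3 replicate numbers, in the libraries used to select them and in the libraries left out. Each point is 1 left-out number, short lines are means of the 3, circles are NIL-bri1-72 and squares NIL-WT-72. For risen genes the means are 0.93 in NIL-bri1-72 and 0.075 in NIL-WT-72 in the libraries used, and 0.22 and 0.40 in those left out.

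The same reading was made of genes that moved in both lines, which were selected by a different rule. Genes selected on 2 numbers with no overlap and 0.8 or more in each line had risen medians of 1.17 in NIL-bri1-72 and 1.30 in NIL-WT-72 in the libraries used, and 0.95 and 1.12 in those left out. The fallen medians were -1.22 and -1.29, and -1.10 and -1.11 in those left out. With the lines exchanged, genes selected as moving in NIL-WT-72 alone had risen medians of 0.10 in NIL-bri1-72 and 0.91 in NIL-WT-72 in the libraries used, and 0.28 and 0.26 in those left out. Their fallen medians were -0.09 and -1.01, and -0.40 and 0.01 in those left out. Averaged over the 3 numbers, in both directions the set restricted to one line lost most of its size in that line. The set required of both lines kept most of it. The rules and the starting sizes of these sets differ, so the cause of the unlike losses was not tested. Single numbers differed. With number 2 left out the both-line risen median went from 1.29 to 0.54 in NIL-bri1-72 and from 1.19 to 1.34 in NIL-WT-72. The both-line fallen median, with number 1 left out, went from -1.34 to -0.64 in NIL-bri1-72 and from -1.23 to -1.12 in NIL-WT-72. With numbers 1, 2 and 3 left out, NIL-bri1-72 moved further than NIL-WT-72 for 52.6%, 14.3% and 74.1% of the both-line risen genes. For the both-line fallen genes the shares were 21.3%, 40.5% and 78.8%. The risen set of NIL-bri1-72 alone went from 0.925 to 0.74 with number 3 left out.

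Where the lines parted was compared in each regime. The rule forces a gap between the lines in at least one regime, but not in which. In water all 10 risen genes had a lower mean in NIL-bri1-72 than in NIL-WT-72, with a median gap of -0.94 on the log2 scale. In drought 5 were lower and 5 higher, with a median gap of 0.002. In water 5 of the 10 had all NIL-bri1-72 libraries below all NIL-WT-72 libraries, where 3.66% of all genes do, and in drought 0 had them all above, where 3.38% of all genes do. The gap was larger in size in water than in drought for 8 of the 10 genes. The rule used the values behind these gaps, so nothing is read from the shares.

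Among the fallen genes 8 of 9 were higher in NIL-bri1-72 than in NIL-WT-72 in water, with a median gap of 0.53, and 6 of 9 were lower in drought, with a median gap of -0.12. NIL-bri1-72 lay above NIL-WT-72 without overlap in water for 4 of the 9, where 6.36% of all genes do, and below it in drought for 1 of the 9, where 3.09% of all genes do. Nothing is read from these shares either, since the rule used the values behind them.

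The genotype difference averaged over both regimes is the one contrast between the groups that the rule did not apply directly. It is still the mean of the line gaps in water and drought, and the rule used the values behind them. The rule can act on this averaged contrast, for one where the spread differs between drought and water within a line. Deviations from the group mean over all genes were 0.231 to 0.306 in droughted and 0.166 to 0.21 in watered NIL-bri1-72. In NIL-WT-72 they were 0.187 to 0.249 in drought and 0.24 to 0.365 in water. The shares below are a description, and nothing is read from them. The averaged contrast tests whether the mean of the water and drought gaps differs from 0, which a gap in 1 regime alone can bring about. The median gap was -0.94 in water and 0.002 in drought for the risen genes. For the fallen genes it was 0.53 and -0.12. By edgeR 0 members and 0% of all genes passed (adjusted p below 0.05), and DESeq2, with 32 of all genes called, and limma voom also called 0 members. An unadjusted p below 0.05 was reached by 6 of the 19 members in edgeR, where 6.49% of all genes reached it, by 7 members and 1578 of all genes in DESeq2 and by 4 members and 1286 of all genes in limma voom. The median estimate was -0.52 for the risen genes, of which 8 of 10 were lower in NIL-bri1-72, and 0.255 for the fallen genes, of which 5 of 9 were higher.

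Sobic.002G389100 on chromosome 2 had the lowest p among members lower in NIL-bri1-72, and its averaged difference was -1.12 log2 units (SE 0.37, edgeR adjusted p = 0.739). Its level was 3.25, 1.07 and 3.46 CPM in droughted and 0.931, 0.707 and 0.574 CPM in watered NIL-bri1-72, and 2.55, 1.61 and 4.0 CPM in droughted and 5.42, 1.82 and 2.63 CPM in watered NIL-WT-72. The 3 watered NIL-bri1-72 libraries were lower than every other library, and the droughted groups of the lines overlapped. Sobic.009G073800, described above, followed with -0.95 (SE 0.39, edgeR adjusted p = 0.739).

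Sobic.005G192600 had the lowest p among members higher in NIL-bri1-72, at 0.63 log2 units (SE 0.21, edgeR adjusted p = 0.739). Sobic.005G039500, also on chromosome 5, followed with 0.66 (SE 0.29, edgeR adjusted p = 0.739). Libraries held 4.47, 2.17 and 2.15 CPM in droughted and 8.23, 5.07 and 4.88 CPM in watered NIL-bri1-72, and 2.31, 3.61 and 1.38 CPM in droughted and 1.93, 4.08 and 2.68 CPM in watered NIL-WT-72. Here too the watered NIL-bri1-72 libraries stood apart, above all 9 others. These 4 differences did not pass the correction over all genes.

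Membership rested on single libraries and on the handling of low counts. With 1 of the 12 libraries left out in turn, each member met the rule in 6 to 11 of the 12 selections and 0 members met it in all 12, and for 16 of 19 the NIL-WT-72 difference reached 0.3 without 1 of the NIL-WT-72 libraries. With a pseudocount of 2 in place of 0.5 the rule kept 3 risen genes, all 3 members, and 3 fallen genes, of which 1 was a member, and among genes of at least 5 CPM it kept 1 and 4.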

How the data were processed

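Messenger RNA of sorghum roots was measured by RNA sequencing in 12 libraries. The authors deposited raw read counts per gene identifier. Per the submitters' processing notes, the tools were featureCounts 1.6.2, HISAT2 2.1.0, Trimmomatic 0.38 and FastQC 0.11.2. No genome build, annotation or strand setting is stated there. Overlapping, antisense and near-identical genes may therefore share reads. Chromosomes were read from the identifiers by the numbering convention of these gene models and not checked against a genome. Groups and replicate numbers came from the sample titles.

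The members, named genes and comparisons were chosen with earlier results of these data known. Selection used log2(CPM + 0.5). All 20818 genes, each kept by filterByExpr, were fitted with edgeR 4.0.16 (TMM scaling, quasi-likelihood test, 4 group means, Benjamini-Hochberg over all genes) in R 4.3.3. A standard error is the size of the log2 fold change over the square root of its F statistic. The fit was tested on simulated data. DESeq2 1.42.0 and limma 3.58.1 (voom) were alternatives. Genes were named by the largest NIL-bri1-72 difference at 10 CPM or more in a NIL-bri1-72 group and by the lowest p of the averaged genotype contrast, 2 in each direction. Only 1 risen gene met the first condition, and genes named otherwise are marked.

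Deviations of drought and water libraries with the same number correlated over genes at 0.379, 0.197 and 0.130 in NIL-bri1-72. In NIL-WT-72 the correlations were 0.102, 0.231 and 0.276. Each lay above 0.1, which was taken as a possible pairing of libraries within a line. The lowest of these lay just above that bound, and a pair of different numbers in NIL-WT-72 reached 0.120. The reported edgeR fit used no pairing, and fits with the replicate number as a block were alternatives. The smallest count of a member in any library ranged from 12 to 354 over the members.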

Additional observations from a re-analysis of the deposited data

How the results depend on the processing

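The number of members depended on most choices. In the order risen then fallen, the rule kept 10 and 9 genes, and 17 and 21 with a pseudocount of 0.1, 3 and 3 with a pseudocount of 2, 5 and 1 with a NIL-bri1-72 difference of at least 1, 6 and 2 with a NIL-WT-72 bound of 0.15, and 1 and 4 among genes of at least 5 CPM. TMM library sizes gave 11 and 8, of which 10 and 8 were members. Leaving out 1 library moved the risen count between 8 and 59 and the fallen count between 6 and 121, with the highest of both without NIL-bri1-72 drought replicate 1. In NIL-bri1-72 the risen count also moved by over 1.5 times when drought replicate 2 (39) or water replicate 1, 2 or 3 (17, 19 and 19) was left out, and in NIL-WT-72 when water replicate 3 (17) was. The fallen count did so for drought replicate 3 (29) and water replicates 1, 2 and 3 (19, 24 and 30) of NIL-bri1-72, and for drought replicate 1 (18) and water replicate 2 (17) of NIL-WT-72. The cause of these moves was not tested.

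The 4 averaged left-out medians moved by less than their SD over the 3 numbers, which is a scatter of overlapping selections. This held with TMM library sizes, with a pseudocount of 2 and among genes of at least 5 CPM. No member was called by edgeR for drought in either line, the interaction or the averaged genotype contrast under any alternative run. DESeq2 called 3 members for drought in NIL-bri1-72, where the cause of the gap to the 0 of edgeR was not tested. With the replicate block, over all 12 libraries or within each line, edgeR called 0 members in each contrast fitted. The block within each line, added after the data were examined, left 0 genes called for the interaction, 13 for drought in NIL-bri1-72 and 100 in NIL-WT-72. It could not be fitted to the averaged genotype contrast. Of the 19 members, 5 had a count under 20 in some library.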
